A study of Mus musculus with 8 samples.

Results

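The ADAMTS proteases described here are 9 genes that were chosen by name among the 54532 genes of the deposited FPKM table: Adamts1, Adamts2, Adamts4, Adamts5, Adamts8, Adamts9, Adamts10, Adamts12 and Adamts15. Each name matched 1 row of the table, and all 9 passed the filter on low values. ADAMTS proteases are secreted zinc metalloproteinases that carry thrombospondin repeats behind their catalytic domain, which hold them to the extracellular matrix. They are made as inactive precursors, cut by proprotein convertases such as furin, held in check by the inhibitor TIMP3 and taken up by cells through the receptor LRP1. In connective tissue they are known for cutting large proteoglycans such as versican and aggrecan and for trimming the amino-propeptide from fibrillar procollagens.

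The cells were mouse cardiac fibroblasts from infarcts, isolated by sorting for the receptor PDGFRα 7 days after coronary occlusion and sequenced without culture. The samples were 4 labelled FTbR2KO (numbers 1 to 4), a label for fibroblast-specific loss of TbR2, which is a receptor for TGF-β, and 4 labelled TbR2fl/fl (numbers 5 to 8), the controls with the floxed gene. Mice of both groups had been given tamoxifen, while the Cre driver and the animals' age are not given in the sources used here. Separate animals are not stated, so p-values measure only the spread between these samples. The comparison asks how loss of TbR2 bears on the transcriptome of infarct fibroblasts.

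Libraries labelled FTbR2KO held 16.1 to 22.9 M reads and controls 21.2 to 28.7 M. The targeted gene Tgfbr2 measured 58.2 ± 1.30 FPKM in the libraries labelled FTbR2KO and 45.5 ± 3.86 FPKM in the controls (SD, n = 4 each), the reverse of what the label says. Whether a floxed exon was lost cannot be read from a whole-gene value, so every direction below refers to libraries as labelled. FTbR2KO 1 and TbR2fl/fl 5 stood apart from the other libraries on the first principal component (scores -24.4 and -20.9, against -0.108 to 19.0), and values without both are given where they change a result. Each title also carries an ID number whose meaning the labels do not give, and the 2 lowest of these belong to FTbR2KO 1 and TbR2fl/fl 5. The fibroblast markers were all detected, with Pdgfra at 57.1 to 85.6 FPKM in the libraries labelled FTbR2KO and 45.5 to 71.1 FPKM in the controls. Markers of several other cell types were low, while mural and mesothelial markers, given below, were higher. The 12 macrophage genes summed to 8.45 to 12.9 and 10.4 to 13.2 FPKM, and the 9 endothelial genes to 20.3 to 26.3 and 19.2 to 28.9 FPKM. Most of the endothelial sum was Tek (16.7 to 23.3 and 15.1 to 26.8 FPKM). No other endothelial gene exceeded 1.17 FPKM in any library. The 10 cardiomyocyte genes summed to 2.70 to 5.82 and 4.10 to 5.13 FPKM, the 8 lymphocyte genes to 0.166 to 0.442 and 0.503 to 0.963 FPKM, and the 5 glial genes to 2.27 to 3.64 and 2.04 to 3.31 FPKM. The 8 mural genes summed to 52.9 to 83.1 FPKM in the libraries labelled FTbR2KO and 53.6 to 71.7 FPKM in the controls, and all 7 that could be tested had log2 fold changes above 0 (median 0.11). The 9 mesothelial genes summed to 68.1 to 115 FPKM in the libraries labelled FTbR2KO and 41.0 to 85.0 FPKM in the controls, and all 8 of them that could be tested had log2 fold changes above 0 (median 0.41). Most of that sum was Aldh1a2 (57.9 to 87.8 and 31.9 to 69.1 FPKM). Aldh1a2 was lowest of each group in FTbR2KO 1 and TbR2fl/fl 5. Wt1, Upk3b, Upk1b, Msln, Krt19, Lrrn4 and Muc16 were instead each highest of their group in those libraries. Upk3b measured 10.4 and 4.38 FPKM there. Krt8 was highest of its group there among the controls only. The part of these genes in the values below was not tested. In bulk samples, fewer cells of a type and less RNA per cell cannot be told apart.

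RefSeq promoters (GRCm38.p6) were found for 4 of the 9 genes. All 4 are shown, and their values played no part in that choice. In the results below, Adamts2 was nearly even over the libraries as deposited. Adamts1, Adamts9 and Adamts12 belong to the pairs described there, none of which passed the adjusted threshold. Each sequence is the 250 bases before the RefSeq start, 5′ to 3′ on the gene's strand, and capitals mark the motifs searched on both strands. For Adamts9 that start lies 42 bases upstream of the gene's start in GENCODE M21, and for Adamts12 17 bases, so these windows are less certain.
Adamts1, chr16:85803114-85803363, minus strand: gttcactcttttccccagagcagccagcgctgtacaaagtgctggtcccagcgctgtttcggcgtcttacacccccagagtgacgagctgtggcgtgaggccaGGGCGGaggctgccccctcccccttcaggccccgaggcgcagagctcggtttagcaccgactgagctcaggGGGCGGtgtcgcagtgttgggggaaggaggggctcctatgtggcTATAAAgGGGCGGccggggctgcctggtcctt
Adamts2, chr11:50601835-50602084, plus strand: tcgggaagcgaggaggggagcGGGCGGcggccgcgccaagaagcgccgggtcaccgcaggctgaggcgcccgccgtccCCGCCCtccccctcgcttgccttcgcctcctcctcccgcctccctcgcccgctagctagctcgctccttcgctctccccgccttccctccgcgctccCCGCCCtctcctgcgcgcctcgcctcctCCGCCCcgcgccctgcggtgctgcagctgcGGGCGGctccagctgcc
Adamts9, chr6:92943535-92943784, minus strand: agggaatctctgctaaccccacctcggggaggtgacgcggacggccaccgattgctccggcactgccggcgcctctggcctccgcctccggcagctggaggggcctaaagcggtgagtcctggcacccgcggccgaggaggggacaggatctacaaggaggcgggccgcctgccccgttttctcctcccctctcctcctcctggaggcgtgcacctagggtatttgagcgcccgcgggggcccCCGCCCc
Adamts12, chr15:11064523-11064772, plus strand: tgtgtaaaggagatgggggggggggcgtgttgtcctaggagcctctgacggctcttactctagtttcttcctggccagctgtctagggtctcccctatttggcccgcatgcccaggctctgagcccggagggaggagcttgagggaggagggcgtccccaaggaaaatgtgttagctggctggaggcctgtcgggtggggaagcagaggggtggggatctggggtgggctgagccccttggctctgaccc
The motifs were the AP-1 element TGACTCA, the cyclic AMP response element TGACGTCA, the Smad-type element CAGACA, the GC box GGGCGG and the TATA element TATAAA. Adamts1 held 3 GC boxes and 1 TATA element, which lay 32 to 27 bases before the start. Its TATA element and its nearest GC box (25 to 20 bases before the start) were 1 base apart and did not overlap. Adamts2 held 5 GC boxes, Adamts9 held 1 and Adamts12 held none of the 5 motifs. Of all 32851 promoters cut to the same length, 32.7% held a GC box, 12.4% the TATA element, 17.1% the Smad-type element, 4.46% the AP-1 element and 1.55% the cyclic AMP response element. None of the 4 windows held the AP-1, cyclic AMP or Smad-type letters. GC content was 65.6% for Adamts1, 78.0% for Adamts2, 71.2% for Adamts9 and 63.2% for Adamts12.

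The 9 genes differed in level over more than 2 orders of magnitude. FPKM is scaled to gene length, so levels of different genes can be set side by side. Adamts2 was the highest, at 195 ± 6.65 FPKM in the libraries labelled FTbR2KO and 195 ± 6.41 FPKM in the controls, and alone made up 44.1% to 47.6% and 46.6% to 52.2% of the summed FPKM of the 9 genes. In both groups Adamts1 came second, followed in order by Adamts10, Adamts4, Adamts5, Adamts12, Adamts15, Adamts8 and Adamts9. Adamts9 averaged 1.65 ± 0.464 FPKM in the libraries labelled FTbR2KO and 1.35 ± 0.321 FPKM in the controls. Adamts15 and Adamts8 overlapped in level in both groups. Adamts10 overlapped with Adamts4 in the libraries labelled FTbR2KO and with Adamts1 in the controls. Adamts5 overlapped with Adamts12 in the libraries labelled FTbR2KO and with Adamts4 in the controls, where Adamts12 also overlapped with Adamts15. The remaining neighbours in that order did not overlap. The place of Adamts10 is less certain, since the table gives it 5453 bases where the GENCODE annotation holds 8254 exonic bases; for the other 8 genes both lengths were equal.

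**Figure D1:**
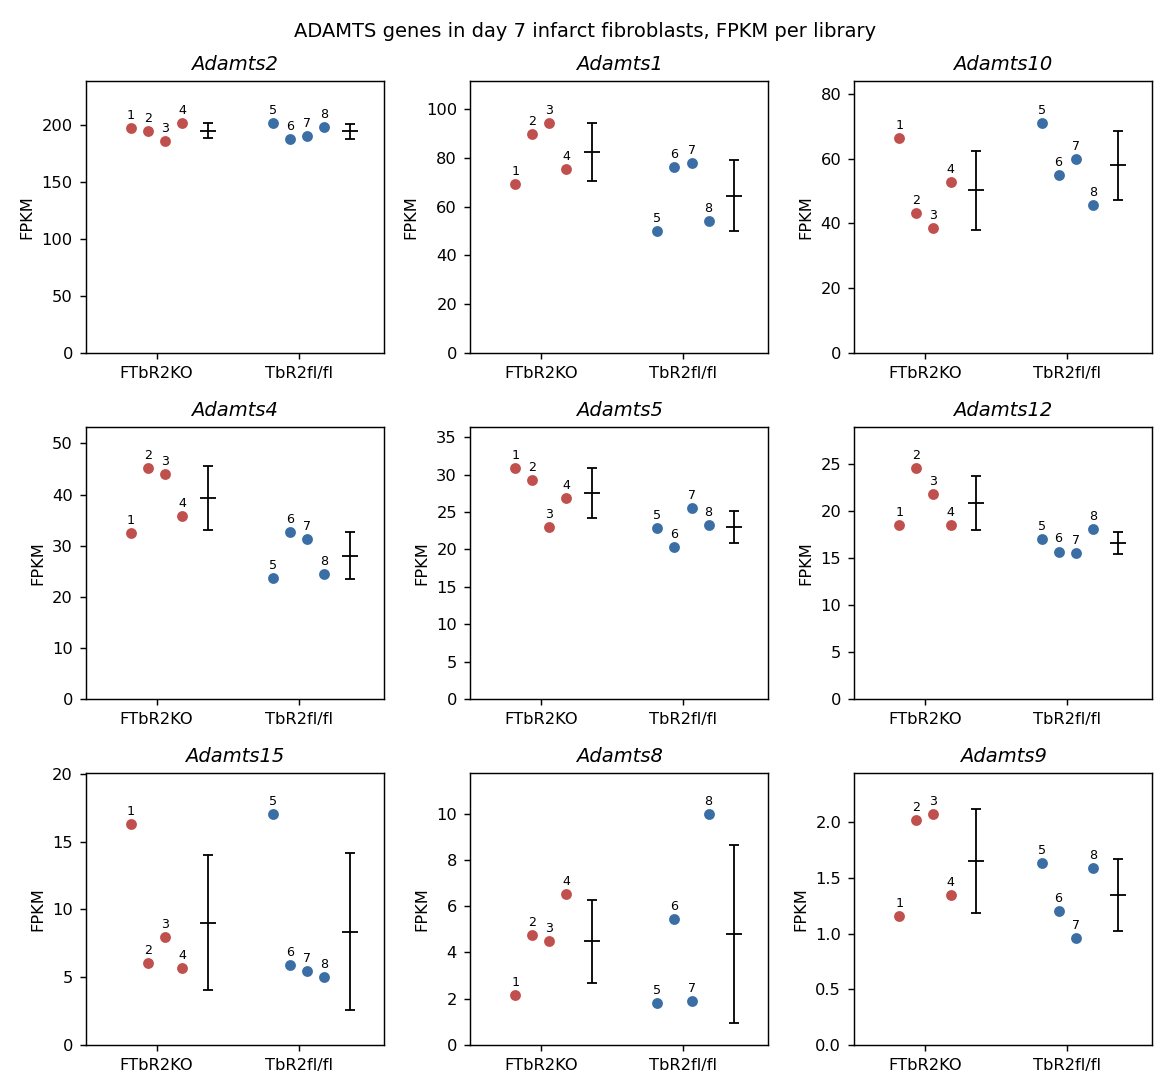
FPKM (vertical axes, from 0) of each of the 9 genes in every library, FTbR2KO on the left and TbR2fl/fl on the right, with sample numbers beside the points and mean ± SD (n = 4) as bars. Adamts2 lay at 186 to 202 FPKM in all 8 libraries, whereas Adamts15 was highest in FTbR2KO 1 and TbR2fl/fl 5 in both groups.

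None of the 9 genes passed the threshold in the genotype comparison (limma on log2(FPKM + 1) over 11667 genes, Benjamini-Hochberg adjusted p under 0.05), and among all genes tested 2 did, or 0.0171%. Their smallest limma adjusted p was 0.571. At an unadjusted p under 0.05 there were 2 of the 9, Adamts4 and Adamts12, both higher in the libraries labelled FTbR2KO, beside 8.61% of all genes in either direction and 3.74% in that one. Log2 fold changes lay above 0 for 8 of the 9 genes, with a median of 0.17, beside 48.8% of all genes tested and a median of -0.0045. The groups did not overlap for 1 of the 9, Adamts12, beside 4.41% of all genes in either direction and 2.52% with the libraries labelled FTbR2KO higher. The mesothelial and mural markers given above also had fold changes on one side of 0, and sequencing depth was lower in most libraries labelled FTbR2KO; their part in these values was not tested.

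**Figure D2:**
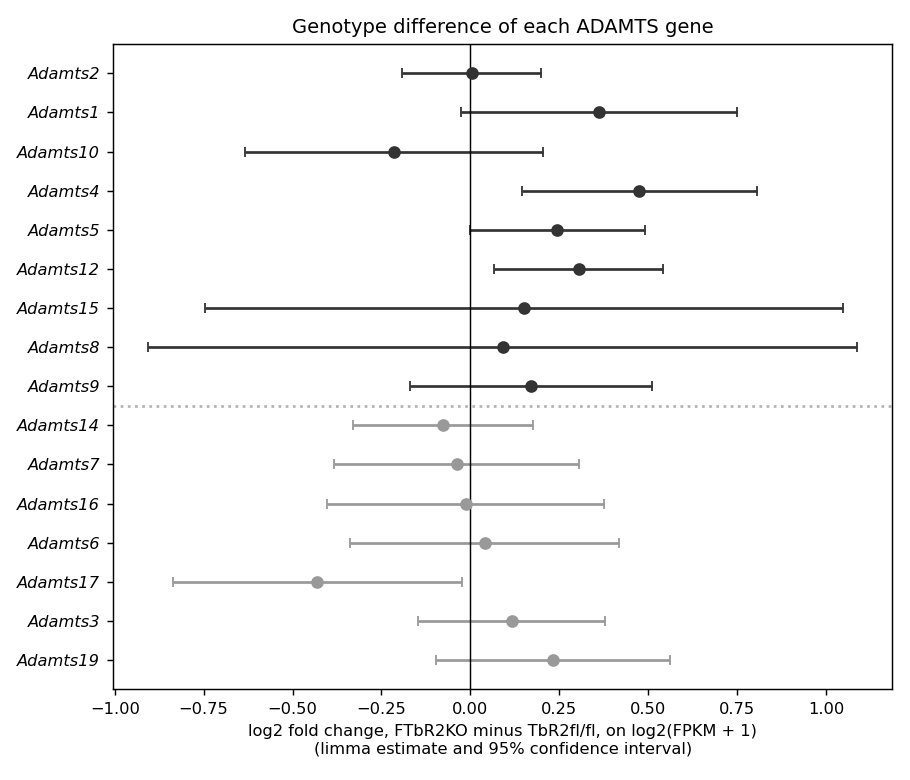
Log2 fold change on the log2(FPKM + 1) scale (horizontal axis, FTbR2KO minus TbR2fl/fl) with limma's 95% confidence interval for the 9 genes (black) and for 7 further ADAMTS genes that could be tested (grey). The intervals of Adamts4 (0.15 to 0.80), Adamts12 (0.068 to 0.54) and Adamts17 lie on one side of 0, and no gene passed the adjusted threshold.

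Of the proteoglycan-cutting members, Adamts4 was the one with an unadjusted limma p under 0.05. Adamts4, also called aggrecanase 1, lies on chromosome 1 (GRCm38, 171250421 to 171260637, plus strand). It measured 32.5, 45.1, 44.0 and 35.7 FPKM in FTbR2KO 1 to 4, against 23.6, 32.6, 31.3 and 24.5 FPKM in TbR2fl/fl 5 to 8. Only FTbR2KO 1 and TbR2fl/fl 6 crossed, by less than 1 FPKM. Limma put the log2 fold change at 0.48, with an SE of 0.15 and a 95% confidence interval of 0.15 to 0.80 (limma adjusted p = 0.571; exact permutation p = 0.0571). Without FTbR2KO 1 and TbR2fl/fl 5 the groups did not overlap for this gene and the log2 fold change was 0.49 (limma adjusted p = 0.460), while 16.9% of all genes did not overlap in that smaller set.

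Adamts1, which cuts versican and aggrecan and is induced in inflamed and injured tissue, lies on chromosome 16 from 85793827 to 85803113, minus strand. It measured 69.1, 89.9, 94.3 and 75.5 FPKM in FTbR2KO 1 to 4, against 49.8, 76.0, 77.8 and 54.1 FPKM in TbR2fl/fl 5 to 8. The groups overlapped, because TbR2fl/fl 6 and 7 reached the levels of FTbR2KO 1 and 4. Limma put the log2 fold change at 0.36, with an SE of 0.17 and a 95% confidence interval of -0.025 to 0.75 (limma adjusted p = 0.591). Adamts5, aggrecanase 2 and the main aggrecanase of mouse cartilage, lies on the same strand of chromosome 16 from 85856173 to 85901828, 53.1 kb away. It measured 30.8, 29.3, 23.0 and 26.9 FPKM in FTbR2KO 1 to 4, against 22.9, 20.4, 25.5 and 23.2 FPKM in TbR2fl/fl 5 to 8. FTbR2KO 3 lay within the range of the controls, so the groups overlapped. Limma gave it 0.24 on the log2 scale, with an SE of 0.11 and a 95% confidence interval of -0.00071 to 0.49 (limma adjusted p = 0.581).

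Adamts9, a versican-cutting protease, was the lowest of the 9 and rested on 296 to 722 reads per library. It lies on chromosome 6 from 92772699 to 92943492, minus strand, and 12.0% of its exonic bases also belong to genes of the other strand, so its counting is less certain. It measured 1.16, 2.02, 2.07 and 1.35 FPKM in FTbR2KO 1 to 4, against 1.63, 1.20, 0.961 and 1.59 FPKM in TbR2fl/fl 5 to 8. FTbR2KO 2 and 3 were above all controls and the other two were not. The log2 fold change was 0.17 (SE 0.15, limma adjusted p = 0.755). It was 0.088 without TbR2fl/fl 7, 0.094 without FTbR2KO 3, 0.10 without FTbR2KO 2, 0.26 without FTbR2KO 1 and 0.32 without FTbR2KO 1 and TbR2fl/fl 5. Summed over Adamts1, Adamts4, Adamts5, Adamts8, Adamts9 and Adamts15, the proteoglycan-cutting members reached 152 to 177 FPKM in the libraries labelled FTbR2KO and 117 to 143 FPKM in the controls, a description of chosen genes that carries no test. The mean sums were 164 and 130 FPKM, of which Adamts1 held 82.2 and 64.4 FPKM and Adamts4 39.3 and 28.0 FPKM. Taken singly, each of the summed genes overlapped between the groups.

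Adamts15 and Adamts8 varied far more between libraries than between genotypes. Both encode proteases with activity on proteoglycans, and they sit head to head on chromosome 9: Adamts15 from 30899155 to 30922452 on the minus strand and Adamts8 from 30942562 to 30963838 on the plus strand, with 20.1 kb between their starts. Adamts15 measured 16.3, 6.03, 7.98 and 5.69 FPKM in FTbR2KO 1 to 4, against 17.0, 5.86, 5.48 and 5.02 FPKM in TbR2fl/fl 5 to 8. Thus 1 library of each group, FTbR2KO 1 and TbR2fl/fl 5, stood far above every other library of either group, and these are the libraries that stood apart over all genes. Its log2 fold change of 0.15 (SE 0.40, limma adjusted p = 0.933) was -0.15 without FTbR2KO 1, 0.52 without TbR2fl/fl 5, -0.0059 without TbR2fl/fl 8 and 0.22 without FTbR2KO 1 and TbR2fl/fl 5, so its direction depended on single libraries.

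Adamts8 measured 2.15, 4.77, 4.48 and 6.51 FPKM in FTbR2KO 1 to 4, against 1.82, 5.46, 1.90 and 9.98 FPKM in TbR2fl/fl 5 to 8. FTbR2KO 1 was the lowest of its group and TbR2fl/fl 5 the lowest control, with TbR2fl/fl 7 close to it and TbR2fl/fl 8 highest of all. The log2 fold change was 0.091 (SE 0.44, limma adjusted p = 0.966), although the mean was lower in the libraries labelled FTbR2KO (4.47 ± 1.79 FPKM) than in the controls (4.79 ± 3.86 FPKM). It was -0.18 without TbR2fl/fl 5, -0.16 without TbR2fl/fl 7, -0.084 without FTbR2KO 4 and 0.48 without TbR2fl/fl 8. An antisense gene shares 10.6% of its exonic bases. The coefficient of variation over the 8 libraries was 57.8% for Adamts15 and 60.2% for Adamts8, higher than in 97.9% and 98.1% of the genes tested, whose median was 13.7%.

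**Figure D3:**
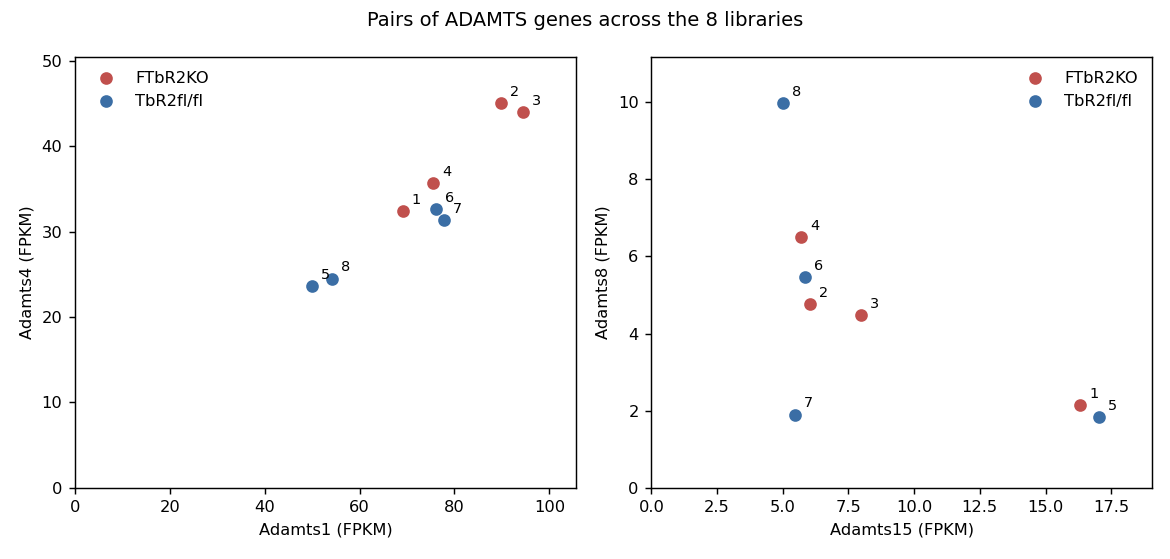
FPKM of Adamts4 against Adamts1 (left) and of Adamts8 against Adamts15 (right) in the 8 libraries, FTbR2KO in red and TbR2fl/fl in blue, numbered by sample. Adamts1 and Adamts4 lie along a line, and libraries 1 and 5 have the highest Adamts15 (16.3 and 17.0 FPKM) with Adamts8 at 2.15 and 1.82 FPKM.

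Across all 8 libraries, Adamts1 and Adamts4 followed each other most closely of the 36 pairs of members. On log2(FPKM + 1) over the 8 libraries Pearson's r was 0.957 (exact permutation p = 0.00198, adjusted over the pairs p = 0.0714) and Spearman's rho 0.810 (exact permutation p = 0.0218, adjusted p = 0.476). Without the 2 libraries farthest from the median of Adamts1, TbR2fl/fl 5 and 8, r was 0.887. After each group's mean was subtracted it was 0.965, and without FTbR2KO 1 and TbR2fl/fl 5 it was 0.944. In that smaller set the strongest r was instead between Adamts9 and Adamts10, at -0.975 (-0.668 over all 8 libraries). Adamts9 and Adamts12 followed with r = 0.822 (exact permutation p = 0.0124, adjusted p = 0.222) and rho = 0.643 (exact permutation p = 0.0962, adjusted p = 0.476). Without TbR2fl/fl 7 and FTbR2KO 3 the r of Adamts9 and Adamts12 was 0.722, and after each group's mean was subtracted it was 0.879. Without FTbR2KO 1 and TbR2fl/fl 5 it was 0.929. No pair passed the adjusted threshold, and for Adamts15 no r is given because its libraries formed separate clusters. The neighbours Adamts1 and Adamts5 had r = 0.236 (exact permutation p = 0.563, adjusted p = 0.811) and rho = 0.0952.

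Adamts2, the procollagen amino-propeptidase, was nearly even. Its gene spans 50602084 to 50807573 of chromosome 11 (plus strand), and its values rested on 31559 to 55240 reads per library. It measured 197, 195, 186 and 202 FPKM in FTbR2KO 1 to 4, against 201, 188, 190 and 199 FPKM in TbR2fl/fl 5 to 8. The groups covered nearly the same range, and limma put the log2 fold change at 0.0037, with an SE of 0.087 and a 95% confidence interval of -0.19 to 0.20 (limma adjusted p = 0.994). Its coefficient of variation over the 8 libraries was 3.11%, and 0.206% of the genes tested had a lower one. That evenness depended on the scaling: the coefficient was 6.00% with FPKM replaced by shares of plain read totals (4.88% of genes lower) and 11.5% after quantile normalization (39.6% lower).

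Adamts2 was also set against the procollagens it trims. Both chains of type I procollagen, Col1a1 and Col1a2, lay below all controls in all 4 libraries labelled FTbR2KO, without passing the adjusted threshold (limma adjusted p = 0.571 and 0.581); over all genes 1.89% lay below without overlap. The summed FPKM of Col1a1, Col1a2 and Col3a1 was 8070, 9305, 8702 and 10299.8 in FTbR2KO 1 to 4, against 11551, 11665, 10640 and 10378 in TbR2fl/fl 5 to 8. The sum was 9094 ± 949 FPKM in the libraries labelled FTbR2KO and 11058 ± 645 FPKM in the controls, a log2 difference of -0.29 (exact permutation p = 0.0286, not adjusted). These genes were chosen with earlier results known, and Col1a1 and Col1a2 by themselves did not overlap. The p of the sum, and that of the ratio below, therefore adds no support to those values. Per 1000 procollagen FPKM there were 24.5, 20.9, 21.4 and 19.6 Adamts2 FPKM in FTbR2KO 1 to 4, against 17.4, 16.1, 17.9 and 19.1 in TbR2fl/fl 5 to 8. The ratio was higher in 4 of 4 libraries labelled FTbR2KO, by 0.29 on the log2 scale (exact permutation p = 0.0286, the smallest that 4 against 4 samples allow, not adjusted). With Adamts2 even, the ratio carries the same difference as the procollagen sum and is no separate result about Adamts2. Linear scaling cancels in such a ratio, but quantile normalization, which is not linear, left a difference of 0.069 (exact permutation p = 0.629). That normalization gives each rank the same value in every library, which can shrink differences of genes as high as these procollagens. What scaling contributed was not tested. Leaving out FTbR2KO 1 and TbR2fl/fl 5 gave 0.22 (exact permutation p = 0.1, the smallest that 3 against 3 allow).

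**Figure D4:**
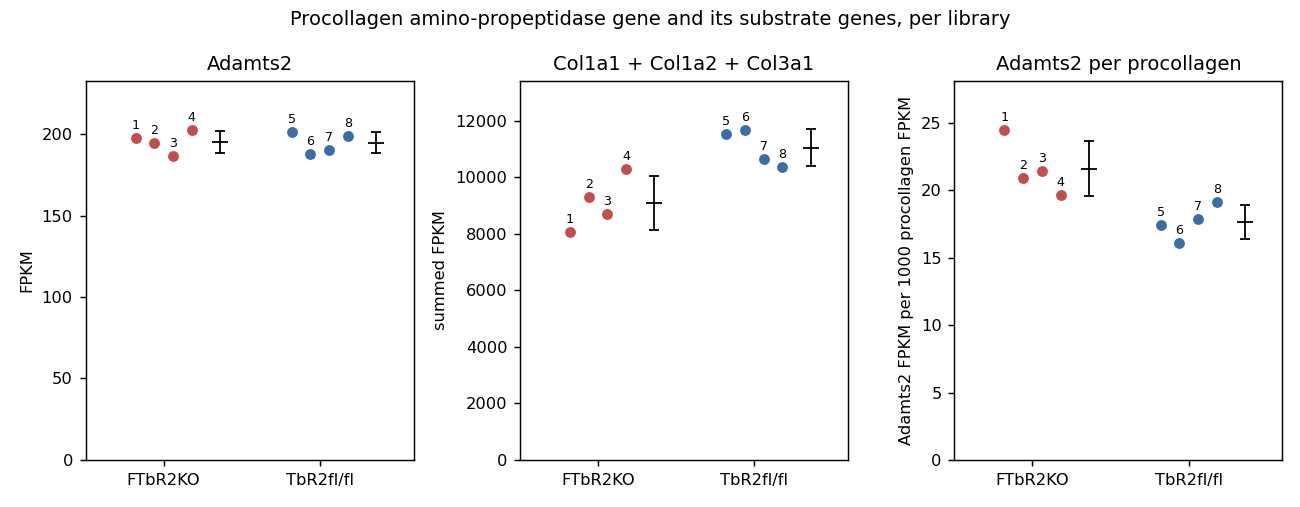
Adamts2 FPKM (left), the summed FPKM of Col1a1, Col1a2 and Col3a1 (middle) and Adamts2 per 1000 procollagen FPKM (right) in each library, FTbR2KO left of TbR2fl/fl, with sample numbers and mean ± SD (n = 4). Adamts2 averaged 195 FPKM in each group, and the ratio was 21.6 ± 2.04 in the libraries labelled FTbR2KO and 17.6 ± 1.24 in the controls.

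Of the other members, Adamts12 was the one whose groups did not overlap. Adamts12, which cuts the cartilage protein COMP together with the related Adamts7, lies on chromosome 15 from 11064790 to 11349231, plus strand. It measured 18.6, 24.5, 21.8 and 18.5 FPKM in FTbR2KO 1 to 4, against 17.0, 15.7, 15.6 and 18.1 FPKM in TbR2fl/fl 5 to 8. FTbR2KO 1 and 4 cleared the highest control, TbR2fl/fl 8, by less than 1 FPKM. Limma put the log2 fold change at 0.31, with an SE of 0.11 and a 95% confidence interval of 0.068 to 0.54 (limma adjusted p = 0.571; exact permutation p = 0.0286, not adjusted). Its limma adjusted p over all alternatives ran from 0.270 to 0.959.

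Adamts10, which binds fibrillin microfibrils and in humans is mutated in Weill-Marchesani syndrome, was the member with a fold change below 0. It lies on chromosome 17 from 33524204 to 33553782, plus strand. It measured 66.2, 43.1, 38.5 and 52.8 FPKM in FTbR2KO 1 to 4, against 71.1, 55.0, 59.7 and 45.6 FPKM in TbR2fl/fl 5 to 8. The groups overlapped, and the highest library of each was FTbR2KO 1 and TbR2fl/fl 5, as for Adamts15. Limma put the log2 fold change at -0.21, with an SE of 0.19 and a 95% confidence interval of -0.63 to 0.20 (limma adjusted p = 0.753). It was -0.10 without FTbR2KO 3, -0.11 without TbR2fl/fl 5 and -0.36 without FTbR2KO 1.

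Genes that act with these proteases were taken from lists chosen with earlier results of these data known, and no member of any list below passed the adjusted threshold in either direction. Of 10 further ADAMTS genes 7 could be tested and 3 stayed under 1 FPKM in all libraries; 3 had log2 fold changes above 0 and 4 below (median -0.013, beside -0.0045 for all genes). Adamts17 measured 2.31 ± 0.508 FPKM in the libraries labelled FTbR2KO and 3.52 ± 1.02 FPKM in the controls (log2 fold change -0.43, SE 0.18), and Adamts14 and Adamts3, the relatives of Adamts2 that also trim procollagen, had log2 fold changes of -0.077 (SE 0.11) and 0.12 (SE 0.12). Adamts19 had a log2 fold change of 0.23 (SE 0.15). Of the 7 ADAMTS-like genes, which resemble the proteases but lack the catalytic domain, 6 could be tested, 4 above 0 and 2 below (median 0.043). Adamtsl2 was the highest of them, at 101 ± 5.78 FPKM in the libraries labelled FTbR2KO and 95.8 ± 9.59 FPKM in the controls. Adamtsl3 had a log2 fold change of 0.16 (SE 0.098), Adamtsl1 0.089 (SE 0.24) and Papln, which encodes papilin, -0.047 (SE 0.20).

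Substrates of these proteases gave 12 above 0 and 5 below among 17 tested of 19 (median 0.092). Vcan, which encodes versican, measured 41.1, 70.1, 65.0 and 55.9 FPKM in FTbR2KO 1 to 4, against 30.5, 42.3, 38.7 and 58.0 FPKM in TbR2fl/fl 5 to 8 (log2 fold change 0.45, SE 0.21, limma adjusted p = 0.591). The groups overlapped at TbR2fl/fl 8. The summed proteoglycan-cutting members stood at 2.53 to 3.69 times Vcan in the libraries labelled FTbR2KO and 2.04 to 3.83 times in the controls, with the highest value of each group in FTbR2KO 1 and TbR2fl/fl 5. Nid2, a basement membrane nidogen, had a log2 fold change of 0.19 (SE 0.073), Tfpi2 0.16 (SE 0.098) and Comp, the protein cut by Adamts12, -0.33 (SE 0.17). All 6 procollagen genes lay below 0 (median -0.28), including Col5a1 at -0.26 (SE 0.14), Col2a1 at -0.37 (SE 0.25), Col1a1 at -0.35 (SE 0.14) and Col1a2 at -0.30 (SE 0.13); after quantile normalization the median was -0.14.

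Of 6 inhibitor genes 4 could be tested, 3 above 0 and 1 below (median 0.13). Timp3, the inhibitor that acts on Adamts4 and Adamts5, measured 104, 104, 105 and 73.2 FPKM in FTbR2KO 1 to 4, against 82.9, 58.4, 81.1 and 98.8 FPKM in TbR2fl/fl 5 to 8, so that FTbR2KO 4 lay among the controls (log2 fold change 0.27, SE 0.18). The membrane-anchored inhibitor gene Reck had a log2 fold change of 0.22 (SE 0.12), Timp1 -0.26 (SE 0.30) and Timp2 0.030 (SE 0.12). Among 7 genes of activation and clearance 2 lay above 0 and 5 below (median -0.029). The clearance receptor gene Lrp1 measured 274 ± 11.6 FPKM in the libraries labelled FTbR2KO and 251 ± 23.5 FPKM in the controls (log2 fold change 0.13, SE 0.11). The convertase genes Furin, Pcsk5 and Pcsk7 had log2 fold changes of -0.14 (SE 0.098), 0.15 (SE 0.098) and -0.045 (SE 0.076). The 2 enzymes that add sugars to thrombospondin repeats split, with B3glct at 0.056 (SE 0.080) and Pofut2 at -0.046 (SE 0.11). The 3 tested of 7 further procollagen-processing genes lay below 0 (median -0.093), with Bmp1, which trims the other end of procollagen, at -0.14 (SE 0.095), Pcolce at -0.093 (SE 0.20) and Pcolce2 at -0.018 (SE 0.16).

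Known transcriptional targets of TGF-β gave 8 above 0 and 10 below among 18 (median -0.031), with Scx at -0.35 (SE 0.23), Id1 at 0.32 (SE 0.24) and Skil at 0.12 (SE 0.093). Immediate-early and dissociation stress genes gave 6 above 0 and 15 below among 21 (median -0.067, and 0.0043 after quantile normalization). Their summed level was 6931 to 7696 FPKM in the libraries labelled FTbR2KO and 6091 to 10084 FPKM in the controls. It was lowest of all in TbR2fl/fl 5 (6091) and 8 (6263), the same libraries in which Adamts1 and Adamts4 were lowest. Among the libraries labelled FTbR2KO it was lowest in FTbR2KO 3 (6931), where Adamts1 was highest of all (94.3 FPKM). The sum was highest in TbR2fl/fl 7 (10084), where Adamts1 (77.8 FPKM) and Adamts4 (31.3 FPKM) lay below FTbR2KO 2 and 3. The part of these genes in the Adamts1 and Adamts4 values was not tested. Fos measured 1400 ± 81.5 FPKM in the libraries labelled FTbR2KO and 1471 ± 329 FPKM in the controls, and Egr1 measured 675 ± 75.3 FPKM in the libraries labelled FTbR2KO and 592 ± 129.9 FPKM in the controls. Jund had a log2 fold change of -0.48 (SE 0.21), Klf2 -0.40 (SE 0.22), Ier2 -0.30 (SE 0.20) and Hspa1b 0.69 (SE 0.57).

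The genes most like each of the 9 members over the 8 libraries were sought among 10611 other tested protein-coding genes by Pearson's r of log2(FPKM + 1), given as a description of the best of many. For Adamts1 they were Pde12 (0.963), Bag3 (0.962) and Nr4a3 (0.957), and for Adamts4 Tsc22d2 (0.974), Immp1l (0.968) and Arc (0.964). For Adamts5 they were Jade1 (0.966), Vezf1 (0.963) and Zeb1 (0.962). For Adamts12 they were Bmpr2 (0.984), Sec24a (0.981) and Taf2 (0.979), and for Adamts9 Ak5 (0.972), Phactr4 (0.939) and Cdk17 (0.925). For Adamts10 they were Mmp11 (0.985), Sema6c (0.979) and Wdr81 (0.976). For Adamts2 they were Skida1 (0.978), Gcnt1 (0.958) and Arvcf (0.947), and for Adamts8 Apmap (0.960), 2310022B05Rik (0.956) and Myo19 (0.953). The ranking for Adamts15 is not listed, since its highest libraries, FTbR2KO 1 and TbR2fl/fl 5, would weigh most in it. Adamts6 headed that ranking, so its pattern was picked by likeness and is no separate result. It measured 6.51, 4.28, 4.89 and 4.59 FPKM in FTbR2KO 1 to 4, against 7.13, 4.45, 3.92 and 4.35 FPKM in TbR2fl/fl 5 to 8. Its highest libraries were also FTbR2KO 1 and TbR2fl/fl 5. Both were likewise highest of their groups for Adamts3, Adamts16 and Adamts19, but not both for Adamts7, Adamts14 and Adamts17. Among the tested ADAMTS-like genes the same held for Adamtsl1 and Adamtsl5, and not for Adamtsl2, Adamtsl3, Adamtsl4 and Papln. These 2 libraries stood apart over all genes, and the share of all genes with this pattern was not counted. The pattern is therefore not shown to be particular to ADAMTS genes.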

How the data were processed

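Poly(A) RNA of 8 samples was made into NEBNext Ultra libraries, per the labels' protocols. The authors deposited 1 table of FPKM per gene, with names, coordinates and gene lengths. The submitters' processing notes list mm10, GRCm38.p6, HTSeq 0.6.1, Cufflinks 2.1.1, TopHat2 2.0 and CASAVA without saying what each was for. The sources used here do not say if counting used strand. FPKM times length came in whole steps in each library (100% of values within 0.01), which gave the reads. Median-of-ratios factors were equal in all libraries (1.008), so that alternative nearly repeats the main fit and is no separate check.

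Genes reaching 1 FPKM in 4 or more samples were compared by limma 3.58.1 (R 4.3.3, trended variance, no covariate) on log2(FPKM + 1), a scale that shrinks folds of low genes. Single values had exact two-sided permutation tests (scipy 1.17.1). The smallest p is 0.0286 with 4 samples against 4. The fit was also run on simulated reads, drawn independently with the same spread setting for all genes and no library standing apart. These data differ in that, so the run does not bear on the results above. Members and lists were chosen with earlier results of these data known. The rule for naming took the 9 members, Tgfbr2, up to 4 genes of smallest p per list, 9 fixed genes, and the 3 genes most like each member. For Adamts15 only Adamts6 is given. Cell type markers are given as sums, with some mesothelial and endothelial genes named singly. Exons are from GENCODE M21, whose coordinates matched for all 9 members, and promoters from RefSeq. One overlap between annotated genes is not reported here. Alternatives were another pseudocount, other filters and scalings, voom on the recovered reads, and libraries left out.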

Additional observations from a re-analysis of the deposited data

Results flagged for a closer look

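Adamts15 in TbR2fl/fl 5 was 17.0 FPKM, far from the other 3 controls at 5.02 to 5.86 FPKM; its gap to the nearest of them was 0.930 of the group's range, above the critical value of 0.829 for 4 samples. Among 18 groups examined this was the single one so marked, and chance alone marks about 1 in 20.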

How the results depend on the processing

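No member passed the threshold under any of the 15 alternatives (smallest limma adjusted p 0.270 to 0.959). Median-of-ratios scaling, counted among these, nearly repeats the main fit. Over all genes 2 passed, against 1 with an FPKM minimum of 5, which drops Adamts8 and Adamts9, and 2 to 8 with single libraries left out (8 without FTbR2KO 4). Adamts1, Adamts4, Adamts5, Adamts9, Adamts10 and Adamts12 kept their direction under all alternatives in which they were tested. With single libraries left out, log2 fold changes ran from -0.014 to 0.025 for Adamts2, from -0.18 to 0.48 for Adamts8 and from -0.15 to 0.52 for Adamts15, so all 3 changed sign; the cause was not tested. The groups did not overlap for 1 member, beside 4.41% of all genes, and for 1 to 2 with single libraries left out, beside 5.36% to 13.1%. Adamts4 was added without FTbR2KO 1 (7.76% of all genes) or TbR2fl/fl 6 (5.59%) and Adamts5 without FTbR2KO 3 (6.45%). There were 2 without FTbR2KO 1 and TbR2fl/fl 5 together, beside 16.9%, and 3 (Adamts1, Adamts4 and Adamts12) after quantile normalization, beside 4.81%. The log2 difference of Adamts2 against its substrates was 0.23 to 0.33 with single libraries left out, where 3 against 4 samples allow no exact permutation p below 0.0571. It was 0.22 without FTbR2KO 1 and TbR2fl/fl 5, 0.36 against Col1a1 alone and 0.069 after quantile normalization, an alternative added after seeing the data, as were voom and the coefficients of variation under other scalings. The 2 count models planned on recovered reads were not run, and voom stood in for them. No paired analysis was possible because the groups share no sample number and the labels do not say what the ID numbers in the titles mean. Adamts8 (172 to 1311 reads per library) and Adamts9 (296 to 722) rest on the fewest reads.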
